A study of Homo sapiens with 12 samples.

Results

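The 10 genes described here encode ligands and enzymes with which tumour cells hold immune cells in check or show themselves to them: CD274, PDCD1LG2, CD276, VTCN1, PVR, NECTIN2, CD47, NT5E, MICA and MICB. They were taken by gene name from a table of 58302 genes, and each of the 10 names matched 1 row. RNA-seq was available from 12 libraries of 3 human prostate cell lines, 4 each of BPH-1, DU145 and PC3. BPH-1 is an immortalised line from benign prostate and was the benign reference, while DU145 and PC3 are prostate cancer (PCa) lines that were derived from metastases. All 3 lines were wild type, were grown in Dulbecco's modified Eagle's medium with fetal bovine serum, penicillin and streptomycin, and received no treatment. Each group is a single established line, and nothing in the labels says that its 4 libraries came from separate cultures, so p-values measure only the spread between these libraries.

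The 10 molecules act at the contact between a tumour cell and an immune cell. PD-L1 (CD274) and PD-L2 (PDCD1LG2) engage PD-1 on T cells and restrain them, and B7-H3 (CD276) and B7-H4 (VTCN1) belong to the same B7 family. PVR and NECTIN2 are shared by the inhibitory receptor TIGIT and the activating receptor CD226, CD47 signals to SIRPA on macrophages not to engulf the cell, NT5E (CD73) makes immunosuppressive adenosine from AMP, and MICA and MICB are stress-induced ligands of the activating receptor NKG2D. Interferon gamma raises PD-L1 in many cell types through a route that includes JAK1, JAK2 and IRF1.

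Sequencing depth, read off the steps in which the values fall, was 12950665 to 16309560 reads per library. FPKM is the number of sequenced fragments of a gene scaled to its exon length and to the depth of the library. 2 features of the libraries touch the results and are given first. In each library log2 FPKM followed the GC content of the genes, and the trend differed between and within lines. Relative to the mean of the 12 libraries, genes of 60% GC stood against genes of 40% GC at -1.17 to -1.02 on the log2 scale in BPH-1, at 1.05 and 1.28 in DU145 replicates 1 and 3, at -0.17 and 0.01 in DU145 replicates 2 and 4, and at 0.21 to 1.05 in PC3. The results of the 10 genes are therefore also given with this trend divided out, as are the list counts that it changed, a step that also removes any real difference that follows GC content.

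The second feature is a leucocyte signal. PTPRC (CD45), which marks leucocytes, had an FPKM of 1.15 to 1.54 in the 4 BPH-1 libraries, of 1.35 and 1.25 in DU145 replicates 1 and 2, and of 0 in DU145 replicates 3 and 4 and in all PC3 libraries. The 5 myeloid markers summed to 9.82 to 12.8 in BPH-1, to 9.16 and 10.1 in DU145 replicates 1 and 2, to 0.589 and 0.344 in DU145 replicates 3 and 4, and to 0.208 to 0.328 in PC3, with FCGR3A at 0 in every PC3 library. Most of this sum was LYZ, at 7.61 to 10.1 in BPH-1 and at 7.76, 8.63, 0 and 0 in DU145 replicates 1 to 4. CSF1R and ITGAM were above 0 in all 4 DU145 libraries. CSF1R was at 0.0335 to 0.107 there against 0.593 to 0.944 in BPH-1, and ITGAM at 0.272 to 0.494 against 0.127 to 0.221. The 9 T, B and NK cell markers, PTPRC included, summed to 1.27 to 1.88 in BPH-1, to 1.64 and 1.56 in DU145 replicates 1 and 2, to 0.0546 and 0 in DU145 replicates 3 and 4, and to 0 to 0.0155 in PC3, and CD3E was at 0 in all 12 libraries. In such bulk RNA, few cells of a type and little RNA per cell cannot be told apart. Where the leucocyte signal came from, inside or outside the cultures, was not tested. Results that involve DU145 were also computed without its replicates 1 and 2, while the BPH-1 libraries all carry the signal, whose part in the differences from BPH-1 was not tested. The 5 fibroblast markers summed to at most 3.94 and the 3 endothelial markers to at most 2.28 in any library. Within DU145, DCN, COL1A2 and LUM were at 0 in replicates 1 and 2. In replicates 3 and 4 DCN was at 0.373 and 0.214, COL1A2 at 0.133 and 0.135 and LUM at 0.108 and 0.140. COL1A1 (0.354 to 0.524) and COL3A1 (0.0239 to 0.111) were above 0 in all 4 DU145 libraries. The fits without replicates 1 and 2 rest on replicates 3 and 4, and the part of these transcripts was not tested. The 6 epithelial markers summed to 84.6 or more in every library. Among them EPCAM was at 57.7 to 63.2 in BPH-1 and 6.92 to 11.1 in PC3 but only 0.166 to 0.573 in DU145. KLK3, which encodes prostate-specific antigen, was listed at 0 in all 12 libraries.

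The ligands had different patterns over the 3 lines. CD274 was seen in BPH-1 and DU145 and was 11.3-fold and 13.7-fold lower in PC3, PDCD1LG2 was seen almost only in BPH-1, PVR peaked in DU145, and NT5E stepped down from BPH-1 to DU145 to PC3. CD47 was lowest in DU145. CD276, NECTIN2, MICA and MICB overlapped between all 3 lines, and VTCN1 was close to absent outside 1 BPH-1 library.

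**Figure D1:**
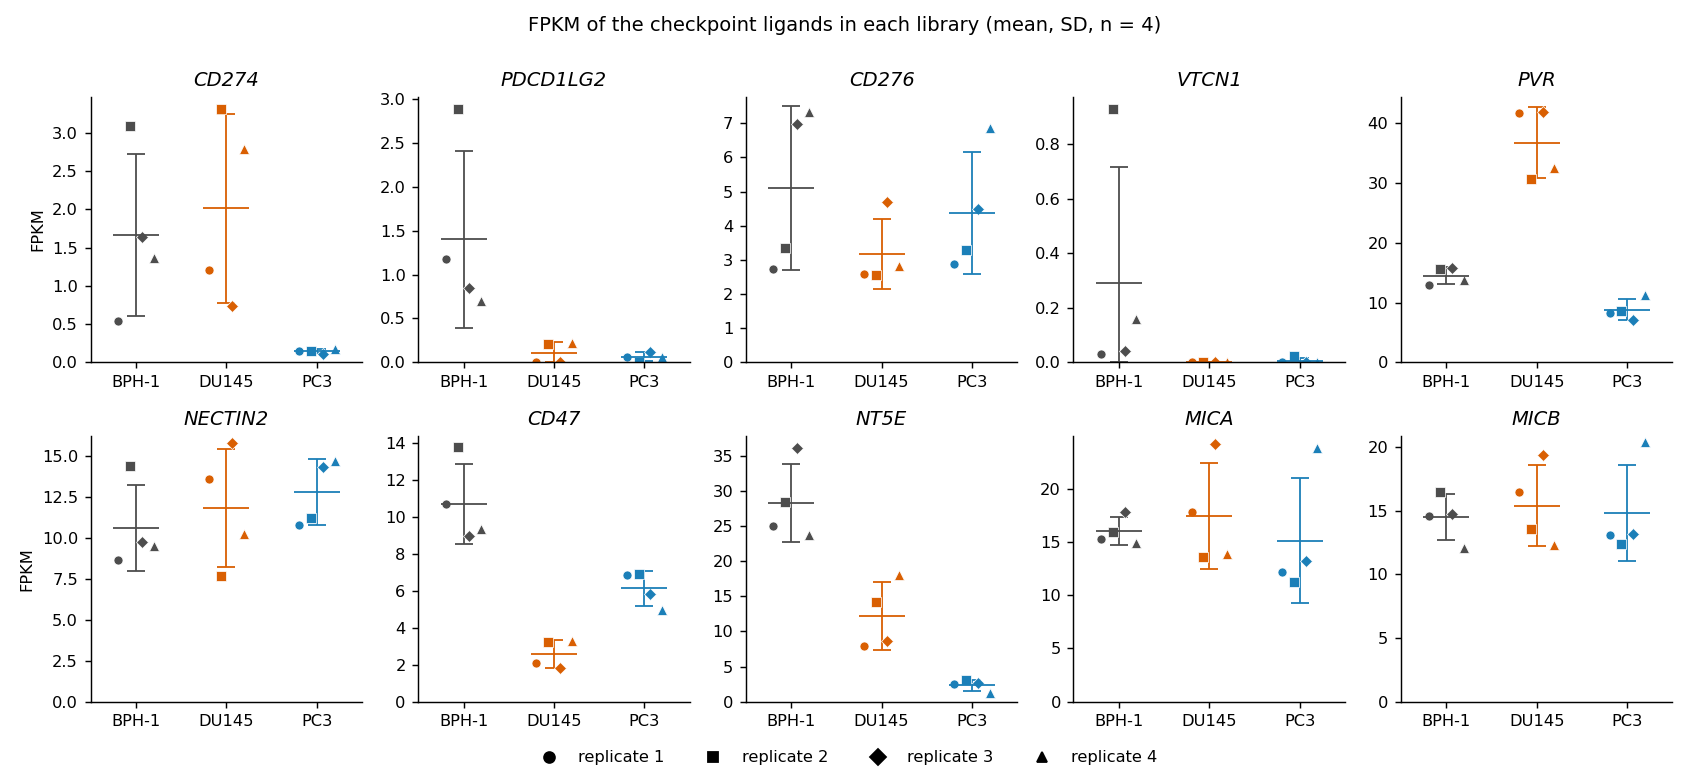
FPKM of each of the 10 genes in each library, with 1 panel per gene, the cell line on the x axis and FPKM from 0 on the y axis. Each marker is 1 library, the long dash is the mean of 4 libraries and the bars are the SD; the 4 DU145 values of PVR (30.7 to 41.8) lie above all other PVR values, and the 4 PC3 values of CD274 (0.111 to 0.178) lie below all other CD274 values.

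In PC3 against BPH-1, which compares a PCa line with the benign line, 9 of the 10 genes passed the filter on low values, which asks for the FPKM of 10 reads in at least 4 libraries. 5 of them were called at a limma p under 0.05 after Benjamini-Hochberg adjustment over all genes tested (the adjusted p), all lower in PC3: CD274, PDCD1LG2, PVR, CD47 and NT5E. PDCD1LG2 passed the filter only through the BPH-1 libraries, here and in DU145 against BPH-1. If called, PDCD1LG2 could thus only be lower in the PCa line. Of all 16408 genes tested, 67.6% were called, 27.1% higher and 40.4% lower in PC3, so a call by itself was common in this comparison. In DU145 against BPH-1, 4 of 9 were called, PVR higher and PDCD1LG2, CD47 and NT5E lower, against 62.7% of all genes, with 30.3% higher and 32.4% lower. In PC3 against DU145, 4 of 8 were called, CD47 higher in PC3 and CD274, PVR and NT5E lower, against 48.3% of all genes, with 20% higher and 28.3% lower. With the GC trend divided out the shares of all genes called were 64.4%, 61.6% and 57.4%, and 6, 6 and 4 of the ligands were called. In 6, 5 and 4 of the 10 genes the libraries of the compared lines did not overlap, against 64.4%, 59.5% and 46.5% of all genes tested. The direction of calls over all genes depended on scaling: 40.2% of the calls between PC3 and BPH-1 were higher in PC3 as deposited, 55.2% after upper-quartile scaling and 30.2% after all libraries were set to 1 common FPKM sum. The comparisons against BPH-1 share the same 4 BPH-1 libraries.

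**Figure D2:**
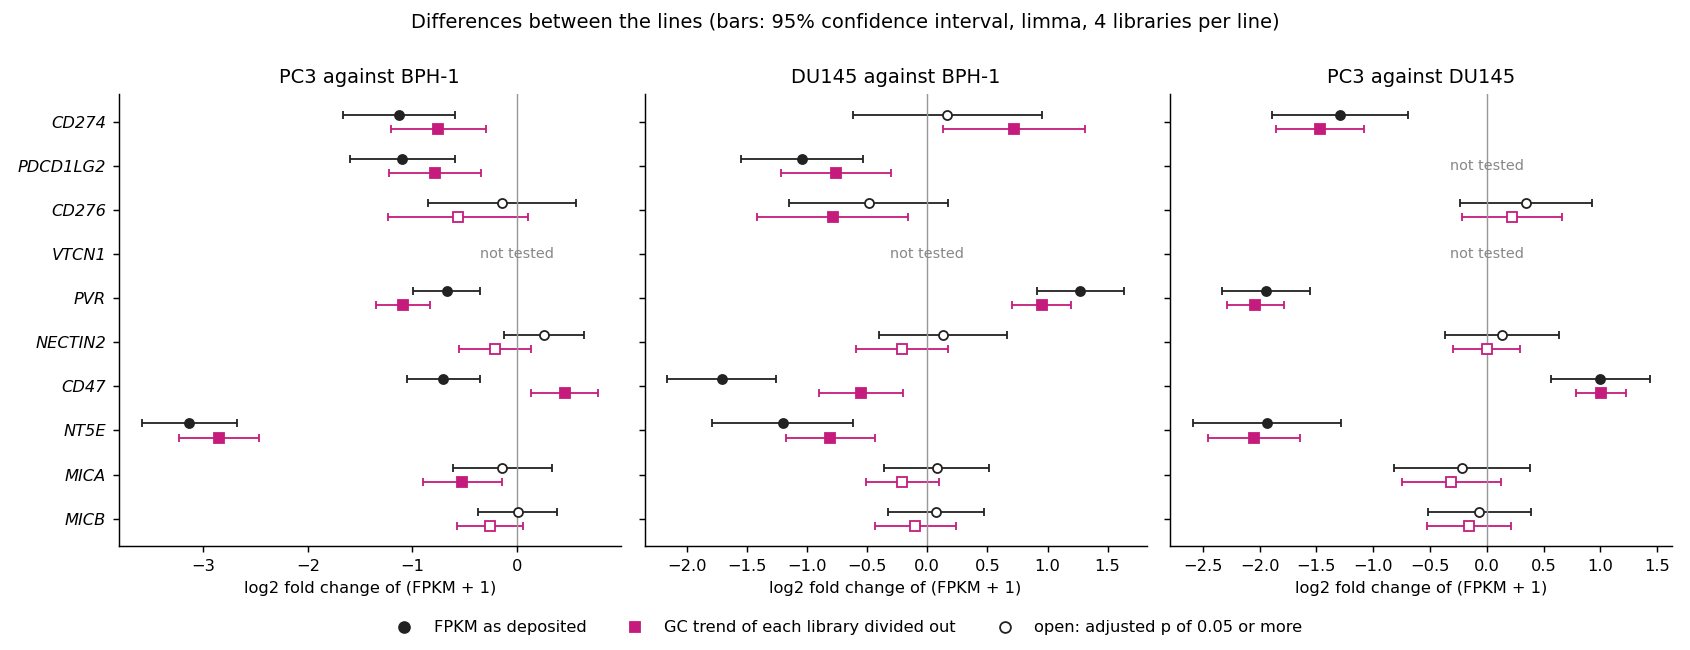
Log2 fold change of (FPKM + 1) on the x axis for each gene in the 3 comparisons, with black circles for FPKM as deposited, pink squares for values with each library's GC trend divided out, and bars for the 95% confidence interval from limma. CD47 lies at -0.71 as deposited and at 0.46 with the trend divided out in PC3 against BPH-1, while NT5E lies between -3.14 and -0.81 in all 3 panels on both scales.

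CD274 encodes PD-L1 and lies on chromosome 9 (GRCh38, 5450503 to 5470566, plus strand). The FPKM of CD274 was 0.540, 3.09, 1.64 and 1.36 in BPH-1 replicates 1 to 4. In DU145 it was 1.21, 3.31, 0.738 and 2.78. In PC3 it was 0.148, 0.149, 0.111 and 0.178, on 61 reads in all. Every PC3 library was thus below every library of the other lines, which overlapped each other. The mean was 1.66 ± 1.06 in BPH-1, 2.01 ± 1.23 in DU145 and 0.147 ± 0.0276 in PC3 (SD, n = 4). PC3 was 11.3-fold below BPH-1, with a log2 fold change of -1.13 (SE 0.24, adjusted p = 0.00227), and 13.7-fold below DU145, with a log2 fold change of -1.29 (adjusted p = 0.00317). Both held with the GC trend divided out, at -0.75 (adjusted p = 0.00938) and -1.47 (adjusted p = 9.07e-05).

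As deposited, CD274 was not called between DU145 and BPH-1 (log2 fold change 0.17, 95% confidence interval -0.61 to 0.95, adjusted p = 0.693). Dividing out the GC trend put CD274 higher in DU145, by 0.72 (adjusted p = 0.0366), on values of 1.35 to 3.25 against 0.345 to 2.04 that still overlapped. Within DU145 the replicates with the steep GC trend, 1 and 3, had the lower CD274 values. Beside the leucocyte signal, CD274 was 1.21 and 3.31 in the DU145 libraries with that signal and 0.738 and 2.78 in those without it. Within BPH-1, where the GC trends were alike, CD274 still spread 5.72-fold, from replicate 1 to replicate 2. In the 2 libraries of each PCa line with a GC trend within 0.3 of the mean, CD274 was 2.78 and 3.31 in DU145 and 0.148 and 0.149 in PC3, with a log2 fold change of -1.81 (adjusted p = 0.000648).

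The promoter of CD274 is shown because interferon gamma is known to act on this gene, and its sequence was searched for the motifs of interferon signalling. RefSeq promoters (GRCh38.p14, 250 bases before to 50 after the start) were matched for 9 of the 10 genes, with 2 for CD276. PDCD1LG2 had no matched promoter and was not searched. The core of the interferon-stimulated response element, 2 GAAA boxes with any 2 bases between them, was searched on both strands and occurred in 3.57% of 35116 promoters and, among these genes, in that of CD274 alone, as 2 overlapping matches 208 and 202 bases before the start, on the minus strand. A gamma-activated site, TTCNNNGAA, began 125 bases before the start and was found in 7.66% of all promoters and in no other of the 9 genes. The 250 bases before the start are printed on the plus strand, 5′ to 3′, at chr9:5450292-5450541, with the response element cores in capitals. A match describes the sequence and was not tested as a binding site.
CD274: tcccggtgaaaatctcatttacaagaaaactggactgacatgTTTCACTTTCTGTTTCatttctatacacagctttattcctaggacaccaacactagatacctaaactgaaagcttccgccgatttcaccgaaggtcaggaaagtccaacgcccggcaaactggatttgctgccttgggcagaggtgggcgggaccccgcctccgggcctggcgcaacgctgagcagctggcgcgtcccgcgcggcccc

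PDCD1LG2 encodes PD-L2 and lies 40004 bases from CD274 on the same strand (chromosome 9, 5510570 to 5571254). The FPKM of PDCD1LG2 was 1.18, 2.88, 0.844 and 0.704 in BPH-1, on 204 reads. The DU145 libraries gave 0, 0.207, 0 and 0.221, on 15 reads. The PC3 libraries gave 0.0653, 0, 0.122 and 0.0653, on 8 reads. All BPH-1 libraries lay above all PCa libraries, and the PCa lines sat near the floor of 3 reads, where they could not be told apart and were not tested against each other. Against BPH-1 the log2 fold change was -1.10 in PC3 (adjusted p = 0.00175) and -1.04 in DU145 (adjusted p = 0.00274), and with the GC trend divided out it was -0.79 and -0.76 (adjusted p = 0.00605 and 0.00951). Only the BPH-1 libraries reached the filter on low values, so the direction of these calls was fixed by it. Within DU145 the 2 libraries with the leucocyte signal gave 0 and 0.207 and the 2 without it 0 and 0.221, and the part of that signal in the difference from BPH-1 was not tested. Without DU145 replicates 1 and 2 the log2 fold change was -1.04 (adjusted p = 0.0256).

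Genes around CD274 were lower in both PCa lines than in BPH-1, although CD274 itself was not called lower in DU145. Of the 11 other protein-coding genes within 500 kb, 6 were tested in PC3 against BPH-1 and 5 were lower, where 40.4% of all genes were. In DU145 against BPH-1, 5 of 7 were lower, where 32.4% of all genes were. With the GC trend divided out, 4 were lower in each of these comparisons. PDCD1LG2 is among the genes counted as lower on both scales in both comparisons. Its direction was fixed by the filter on low values. JAK2, a kinase of the interferon gamma receptor, lies 322320 bases away and had an FPKM of 2.93 to 3.36 in BPH-1, 0.097 to 0.882 in DU145 and 0.104 to 1.16 in PC3. RIC1, 158459 bases away, was at 4.70 ± 0.148 in BPH-1, 1.24 ± 1.12 in DU145 and 1.78 ± 0.686 in PC3 (SD, n = 4). For both genes the BPH-1 libraries lay above all others, and the fall was called on both scales. PLGRKT, the nearest at 12625 bases, fell as deposited (log2 fold change -0.51 in PC3 and -0.42 in DU145) but was not called with the GC trend divided out (adjusted p = 0.104 and 0.706). Between PC3 and DU145 the 5 neighbours tested had adjusted p-values of 0.381 to 0.894.

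The interferon gamma route to CD274 was taken as 13 genes, among them its inhibitors SOCS1, SOCS3 and PTPN2. Of these, 2 were higher and 9 lower in PC3 than in BPH-1, and 2 were higher and 6 lower in DU145 than in BPH-1. The genes higher in PC3 were IFNGR2 and SOCS3, which was at 21.6 against 11.4 in the means of PC3 and BPH-1. With the GC trend divided out, 2 were higher and 8 lower in PC3. IFNGR1, the ligand-binding receptor chain, was at 30.4 ± 3.71 in BPH-1, 6.74 ± 3.82 in DU145 and 7.30 ± 2.78 in PC3, whereas IFNGR2, the signalling chain, was at 13.7 ± 2.33, 23.1 ± 2.72 and 35.6 ± 9.76 (SD, n = 4). Both receptor chains were thus called in both PCa lines, in opposite directions, with and without the GC trend. IRF1, the factor that acts on the CD274 promoter, was at 4.90 to 5.89 in BPH-1, 3.74 to 6.89 in DU145 and 0.951 to 1.63 in PC3. IRF1, like CD274, was low in PC3 alone, below DU145 by 1.43 (adjusted p = 0.000292), and was not called between DU145 and BPH-1 (log2 fold change -0.04, adjusted p = 0.876). STAT3 was also low in PC3 alone, at 15.4 ± 2.18 in BPH-1, 24.2 ± 2.02 in DU145 and 0.0416 ± 0.013 in PC3 (SD, n = 4).

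Of 12492 protein-coding genes tested in all comparisons, those whose log2(FPKM + 1) correlated best with CD274 over the 12 libraries were KLF9 (Pearson r = 0.96), KIF5C (0.95), IL1R1 (0.94), RCN1 (0.94) and PTPRE (0.94). The libraries share 3 lines and their GC trends, so these values describe a likeness of pattern. With a pseudocount of 0.1 in place of 1, 3 of these 5 were still among the best 5. After the line means were taken out, r was 0.90, 0.86, 0.97, 0.93 and 0.90. All 5 genes had GC contents of 42.3% to 49.2%, near that of CD274 (41.5%).

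Genes that act on the PD-L1 protein gave no single direction, with 2 of 10 higher and 4 lower in either PCa line than in BPH-1, or 3 higher and 5 lower in PC3 and 2 higher and 3 lower in DU145 with the GC trend divided out. B3GNT3, which glycosylates PD-L1, was at 4.11 ± 0.806 in BPH-1, 0.392 ± 0.097 in DU145 and 6.92 ± 0.633 in PC3 (SD, n = 4). B4GALT1, another glycosyltransferase, was at 61.3 ± 10.6, 80.9 ± 8.69 and 24.3 ± 4.53. DCUN1D1, a factor of cullin neddylation, was at 7.56 ± 1.36 in BPH-1 and 0.958 ± 0.339 and 1.29 ± 0.523 in DU145 and PC3. B3GNT3 and CD274 thus ran opposite ways between DU145 and PC3 (log2 fold change of B3GNT3 in PC3 against DU145 2.51, adjusted p = 1.36e-06). CMTM6, which keeps PD-L1 on the membrane, depended on the GC trend: it was lower in DU145 than in BPH-1 as deposited (-1.24, adjusted p = 0.0107) and was not called with the trend divided out (-0.02, adjusted p = 0.926).

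CD276 encodes B7-H3 and lies on chromosome 15 (73683966 to 73714518, plus strand). The FPKM of CD276 was 2.72, 3.34, 6.99 and 7.34 in BPH-1. In DU145 it was 2.59, 2.56, 4.70 and 2.83. In PC3 it was 2.88, 3.30, 4.50 and 6.85. The 3 lines overlapped, and the spread within BPH-1, where replicates 3 and 4 were above replicates 1 and 2, was wider than the difference between the means of any pair of lines. As deposited no comparison was called (log2 fold change -0.14, 95% confidence interval -0.85 to 0.56 in PC3 against BPH-1, and -0.49, -1.15 to 0.17 in DU145 against BPH-1). CD276 was called lower in DU145 than in BPH-1 once the GC trend was divided out, by 0.79 (adjusted p = 0.0339), on overlapping libraries.

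VTCN1 encodes B7-H4 and lies on chromosome 1 (117143587 to 117210960, minus strand). It had 3, 86, 4 and 15 reads in BPH-1, with FPKM of 0.0321, 0.929, 0.0425 and 0.158. No read fell on it in any DU145 library and 2 reads fell on it in PC3, both in replicate 2. VTCN1 did not reach the filter and was not tested. The detection in BPH-1 rests mainly on replicate 2, and a level in the PCa lines below the floor of 3 reads per library could not be seen at this depth.

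Of 6 other B7 family ligands, 4 were tested in either comparison against BPH-1, and 1 was higher and 2 lower in PC3 and 1 higher and 1 lower in DU145. The lower counts were 3 and 0 with the GC trend divided out. CD80 was listed at 0 in all libraries, and CD86, which shares its receptors with CD80, had a mean of at most 0.0934 in any line. In DU145 CD86 was at 0.0371 and 0.0517 in the libraries with the leucocyte signal and at 0 in those without it. VSIR, which encodes the inhibitory ligand VISTA, was at 2.53 ± 0.426 in BPH-1, 23.6 ± 5.88 in DU145 and 2.37 ± 0.923 in PC3 (SD, n = 4). VSIR was thus high in DU145, with a log2 fold change of 2.78 against BPH-1 (adjusted p = 2.88e-06). ICOSLG, a costimulatory ligand, was highest in PC3, at 3.15 ± 0.628 against 0.378 ± 0.165 in BPH-1 and 0.485 ± 0.0658 in DU145. Among 9 butyrophilins, relatives of the B7 ligands, 6 were tested, and 2 were higher and 1 lower in PC3 and 4 higher and 1 lower in DU145 than in BPH-1. Their balance in PC3 turned with the GC trend divided out, to 1 higher and 2 lower, and in DU145 it was 3 higher and 1 lower. BTNL9 rose in both, from 0.0891 ± 0.0546 to 1.25 ± 0.111 in PC3 and 2.03 ± 0.412 in DU145.

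PVR and NECTIN2 are neighbours on chromosome 19 (44643798 to 44663583 and 44846175 to 44889228, both on the plus strand). The FPKM of PVR, the ligand that TIGIT binds most tightly, was 12.9, 15.6, 15.7 and 13.8 in BPH-1. The DU145 libraries gave 41.6, 30.7, 41.8 and 32.4. The PC3 libraries gave 8.20, 8.64, 7.11 and 11.3. The lines did not overlap, and in DU145 every PVR value lay above every value of the other 9 genes. DU145 was above BPH-1 by a log2 fold change of 1.27 (SE 0.16, adjusted p = 9.1e-05), and PC3 was below DU145 by 1.95 (adjusted p = 2.15e-05) and below BPH-1 by 0.67 (adjusted p = 0.00217). With the GC trend divided out these were 0.95, -2.04 and -1.09, all called, and the SD within DU145 fell from 5.90 to 1.76 FPKM. Under upper-quartile scaling the difference between PC3 and BPH-1 was -0.29 and no longer called (adjusted p = 0.178). Of its 3519 exon bases, PVR shares 121 with CEACAM19, which had an FPKM of at most 1.09.

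The FPKM of NECTIN2 was 8.67, 14.4, 9.71 and 9.51 in BPH-1. In DU145 it was 13.6, 7.67, 15.8 and 10.2. In PC3 it was 10.8, 11.2, 14.3 and 14.7. NECTIN2 overlapped between all lines and was called in no comparison on either scale (log2 fold change 0.26, 95% confidence interval -0.12 to 0.65 in PC3 against BPH-1). PVR and NECTIN2 therefore parted, although both ligands bind TIGIT and CD226. Of the 7 other nectins and nectin-like molecules, none was higher and 2 were lower in PC3 than in BPH-1, and 2 were higher and 3 lower in DU145. NECTIN4, a nectin of epithelia, was at 8.10 ± 3.62 in BPH-1, 0.0984 ± 0.0541 in DU145 and 0 in all PC3 libraries. NECTIN1 fell in both PCa lines, from 29.6 ± 3.55 to 12.6 ± 3.09 in DU145 and 17.9 ± 1.32 in PC3, and CADM1 was seen at 3.28 ± 1.66 in DU145 against 0.0519 ± 0.0228 in BPH-1 (SD, n = 4).

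CD47 lies on chromosome 3 (108043298 to 108091025, minus strand) and has the lowest GC content of the 10 genes (38.3%). The FPKM of CD47 was 10.7, 13.8, 9.0 and 9.35 in BPH-1. The DU145 libraries gave 2.11, 3.22, 1.81 and 3.28. The PC3 libraries gave 6.89, 6.91, 5.81 and 4.96. As deposited the lines did not overlap and BPH-1 was highest, with log2 fold changes of -0.71 in PC3 (adjusted p = 0.00281) and -1.71 in DU145 (adjusted p = 6.21e-05). Dividing out the GC trend gave values of 4.6 to 7.72 in BPH-1, 3.33 to 3.82 in DU145 and 7.60 to 8.56 in PC3. DU145 stayed lowest, by 0.55 against BPH-1 (adjusted p = 0.0123), but PC3 was now above BPH-1 by 0.46 (adjusted p = 0.0177). The order of PC3 and BPH-1 in CD47 thus turned with this step, and upper-quartile scaling also ended the call (-0.34, adjusted p = 0.0602). The difference between the PCa lines did not depend on it: PC3 was above DU145 by 1.0 as deposited (adjusted p = 0.00213), by 1.01 with the trend divided out (adjusted p = 2.83e-05) and by 0.90 in the libraries of like GC trend (adjusted p = 0.0027).

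Of 6 partners of CD47 and enzymes of its pyroglutamate modification, 3 were higher and 2 lower in PC3 than in BPH-1, and 1 was higher and 1 lower in DU145. The count in PC3 was 2 higher and 2 lower with the GC trend divided out. SIRPA, the receptor that binds CD47, was itself present in the cell lines, at 3.98 ± 0.388 in BPH-1, 4.96 ± 1.20 in DU145 and 8.98 ± 0.924 in PC3 (SD, n = 4). QPCTL, the enzyme that modifies CD47 for SIRPA binding, was at 3.64 ± 0.713, 7.23 ± 1.81 and 5.77 ± 0.912, and was called higher in both PCa lines as deposited. QPCTL was called with the GC trend divided out in DU145 (0.51, adjusted p = 0.0177) and not in PC3 (0.15, adjusted p = 0.357). THBS1, a secreted partner of CD47, fell from 166 ± 94.6 in BPH-1 to 11 ± 3.25 in PC3 and was at 75.2 ± 49.5 in DU145. CD24, a further signal against engulfment, was at 26.1 ± 9.28 in BPH-1, 0.184 ± 0.0728 in DU145 and 2.05 ± 0.632 in PC3, so that CD24 was lower in both PCa lines and lowest in DU145, and each of these differences was called on both scales.

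NT5E lies on chromosome 6 (85449584 to 85495791, plus strand) and encodes CD73. The FPKM of NT5E was 25, 28.4, 36.1 and 23.7 in BPH-1. In DU145 it was 7.91, 14.2, 8.63 and 18.1. In PC3 it was 2.51, 3.06, 2.64 and 1.26. The lines did not overlap and stepped down in this order, and in BPH-1 every NT5E value lay above every value of the other 9 genes. PC3 was 12-fold below BPH-1, with a log2 fold change of -3.14 (SE 0.20, adjusted p = 1.43e-06), DU145 was 2.32-fold below it at -1.20 (adjusted p = 0.00272), and PC3 was 5.16-fold below DU145 at -1.93 (adjusted p = 0.0005). Once the GC trend was divided out these were -2.85, -0.81 and -2.05, all called. All 3 tested genes within 500 kb were lower in both PCa lines as deposited, and 1 in PC3 and 3 in DU145 with the trend divided out. SNX14, the nearest at 9705 bases, was at 5.70 ± 0.463 in BPH-1, 0.943 ± 0.664 in DU145 and 1.88 ± 0.82 in PC3. Unlike NT5E, SNX14 had a higher mean in PC3 than in DU145 (log2 fold change 0.58, adjusted p = 0.129, and 0.65, adjusted p = 0.03, with the trend divided out).

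Of 14 other genes of adenosine handling, 5 were higher and 3 lower in PC3 than in BPH-1, and 3 were higher and 4 lower in DU145. The counts were 5 higher and 4 lower in either line with the GC trend divided out. ENTPD1 (CD39), which makes the AMP that CD73 uses, had a mean of at most 0.0259 in any line and, in DU145, was at 0.0329 and 0.0382 in the libraries with the leucocyte signal and at 0.00576 and 0 in the others. ENPP1, another source of AMP, was at 0.275 ± 0.0491 in BPH-1, 0.610 ± 0.461 in DU145 and 1.86 ± 0.813 in PC3. DPP4 (CD26), which anchors adenosine deaminase at the surface, was at 1.13 ± 0.571 in BPH-1, 0.324 ± 0.197 in DU145 and 17.7 ± 6.71 in PC3 (SD, n = 4). DPP4 thus ran opposite to NT5E between BPH-1 and PC3, with a log2 fold change of 3.08 (adjusted p = 2.51e-05). The adenosine receptors ADORA1 and ADORA2A were highest in DU145, at 1.43 ± 0.688 and 1.62 ± 1.39 against 0.125 ± 0.0247 and 0.140 ± 0.059 in BPH-1.

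MICA and MICB lie on chromosome 6 (31399784 to 31415315 and 31494881 to 31511124, both on the plus strand). The FPKM of MICA was 15.3, 15.9, 17.8 and 14.9 in BPH-1. The DU145 libraries gave 17.8, 13.6, 24.2 and 13.9. The PC3 libraries gave 12.2, 11.2, 13.2 and 23.8. MICA overlapped between all lines, with 1 high library in PC3, and was not called as deposited (PC3 against BPH-1 -0.14, 95% confidence interval -0.61 to 0.33). In PC3 against BPH-1 MICA was called lower with the GC trend divided out (-0.52, adjusted p = 0.0218) and without PC3 replicate 4 (-0.37, adjusted p = 0.0101).

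The FPKM of MICB was 14.6, 16.5, 14.7 and 12.1 in BPH-1. In DU145 it was 16.5, 13.6, 19.4 and 12.3. In PC3 it was 13.1, 12.4, 13.2 and 20.4. MICB overlapped between all lines and was called in no comparison on either scale, with 95% confidence intervals of the deposited difference of -0.37 to 0.38 in PC3 against BPH-1, -0.32 to 0.47 in DU145 against BPH-1 and -0.52 to 0.39 in PC3 against DU145. MICA and MICB had the highest means of the 10 genes in PC3 and overlapped there. The PC3 values of NECTIN2 (10.8 to 14.7) overlapped both, and with merged exons as the length the NECTIN2 mean stood between them. MICA and MICB share 45 stretches of 50 bases, 1.89% of those of MICA and 1.61% of those of MICB, and no other pair of the 10 genes shares any. Shorter or inexact matches and genes outside the 10 were not searched, so an exchange of reads was not tested. MICA shares 62 of its 2386 exon bases with HCP5 on the same strand, which was at 0.115 to 11.1.

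The promoters of MICA and MICB are shown because the levels of these genes overlapped between all 3 lines. Their longest stretch in common within 250 bases of the start was 23 bases, printed in capitals, which began 95 bases before the start of MICA and 99 bases before that of MICB. They are given 5′ to 3′ on the plus strand at chr6:31403345-31403594 for MICA and chr6:31497895-31498144 for MICB (RefSeq, GRCh38.p14). The heat shock element was searched only as 3 GAA boxes in alternating direction, a strict form held by 0.49% of all promoters. Shorter forms of this element were not searched, so its absence, stated next, covers the strict form alone. A GC box, GGGCGG on either strand, lay 111 and 115 bases before the start, a motif held by 45% of all promoters, and no heat shock element was found in these or the other matched promoters.
MICA: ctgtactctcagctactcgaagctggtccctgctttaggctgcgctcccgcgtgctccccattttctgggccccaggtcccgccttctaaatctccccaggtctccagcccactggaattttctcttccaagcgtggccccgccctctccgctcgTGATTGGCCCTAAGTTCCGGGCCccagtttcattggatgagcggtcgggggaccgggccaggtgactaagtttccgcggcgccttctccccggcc
MICB: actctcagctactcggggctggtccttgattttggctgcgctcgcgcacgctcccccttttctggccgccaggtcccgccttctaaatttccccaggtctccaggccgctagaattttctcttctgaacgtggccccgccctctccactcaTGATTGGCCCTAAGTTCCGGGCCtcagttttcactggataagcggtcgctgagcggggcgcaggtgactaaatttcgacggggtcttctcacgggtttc

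Of 6 other NKG2D ligands, 5 were lower in PC3 than in BPH-1, where 40.4% of all genes were lower. In DU145 against BPH-1, 5 were lower and 1 was higher, where 32.4% and 30.3% of all genes were. ULBP1 was at 2.19 ± 0.201 in BPH-1, 14.3 ± 5.4 in DU145 and 1.44 ± 0.474 in PC3, and was the ligand that rose in DU145 (log2 fold change 2.19, adjusted p = 4.53e-05). ULBP2 was at 16.4 ± 6.72, 5.95 ± 1.87 and 7.82 ± 2.26 and RAET1L at 5.4 ± 2.58, 0.690 ± 0.121 and 1.02 ± 0.194 (SD, n = 4). Among 5 genes that release such ligands from the surface, 3 were lower in each PCa line and none was higher as deposited, while 1 was higher in DU145 with the GC trend divided out. ADAM10, a sheddase, was at 6.15 ± 0.255 in BPH-1, 1.74 ± 1.21 in DU145 and 0.786 ± 0.385 in PC3, and MMP9 at 9.97 ± 6.66, 0.0934 ± 0.119 and 0.0651 ± 0.0393.

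Among 10 further ligands of inhibitory receptors, 3 were higher and 2 lower in PC3 than in BPH-1, 4 were lower in DU145, and 5 were higher in PC3 than in DU145. With the GC trend divided out, 1 was higher and 3 lower in PC3 than in BPH-1, and 5 were lower in DU145. LGALS3, which encodes galectin-3, was at 14.9 ± 1.87 in BPH-1, 9.67 ± 1.88 in DU145 and 23.2 ± 4.42 in PC3. Of 11 costimulatory and adhesion ligands, 2 were higher and 4 lower in PC3 and 5 higher and 3 lower in DU145 than in BPH-1. CD70, a ligand of CD27, was at 4.00 ± 0.596 in BPH-1, 29.9 ± 6.13 in DU145 and 4.74 ± 0.797 in PC3, and ICAM1, through which T cells adhere, was at 11.3 ± 6.94, 65.1 ± 17.7 and 63.0 ± 1.87 (SD, n = 4). DU145 thus had the highest mean of PVR, VSIR, CD70 and ULBP1 among the 3 lines, but the lowest of CD47, CD24, ULBP2 and LGALS3. The receptors of these ligands on immune cells were near 0: of 14, none was tested in PC3 against BPH-1 and only LAG3 in the other comparisons, at 0.311 ± 0.021 in DU145, and PDCD1, which encodes PD-1, was at 0 in all BPH-1 and PC3 libraries.

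**Figure D3:**
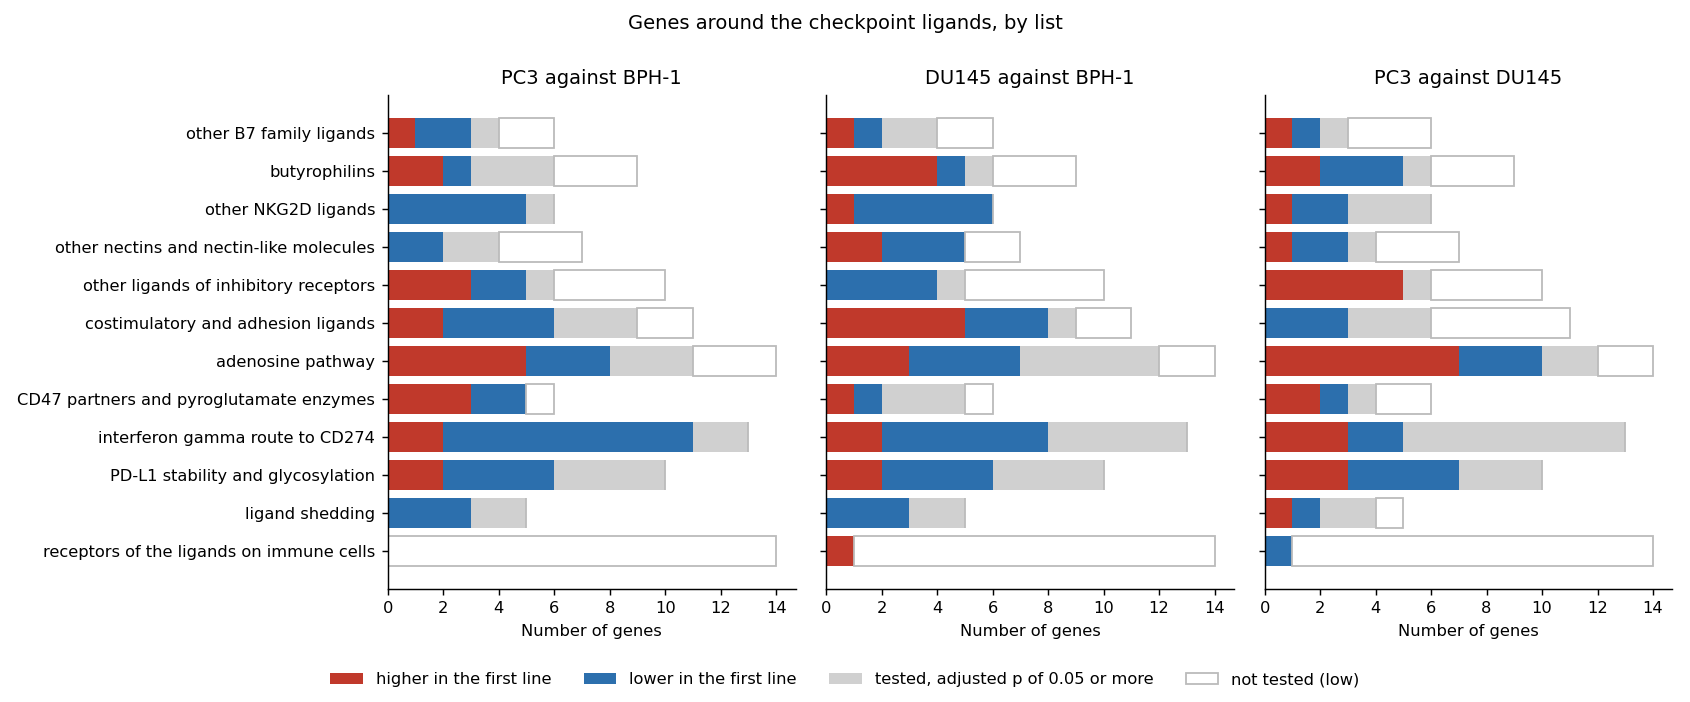
Number of genes (x axis) in each of 12 lists around the 10 ligands (y axis) that were higher (red), lower (blue) or not called (grey) in the first-named line at an adjusted p under 0.05, and that were too low to be tested (white). The 13 genes of the interferon gamma route hold 9 lower and 2 higher genes in PC3 against BPH-1, where 40.4% and 27.1% of all genes were called lower and higher.

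Within a line, the replicates of the ligands split by GC content. In DU145 replicates 1 and 3, with the steep trend, CD274, PDCD1LG2, CD47 and NT5E (38.3% to 44.5% GC) were lower than in replicates 2 and 4, and PVR, NECTIN2, MICA and MICB (50.7% to 61.2% GC) were higher, without overlap. In PC3, replicate 4, which had the steepest trend of its line, was the highest library for CD276, PVR, NECTIN2, MICA and MICB and the lowest for CD47 and NT5E, but also the highest for CD274. Dividing out the trend made the SD of log2(FPKM + 1) smaller for 9 of the 10 genes in DU145, 8 in PC3 and 6 in BPH-1, and its median over the genes went from 0.316 to 0.203 in DU145, from 0.232 to 0.160 in PC3 and from 0.281 to 0.290 in BPH-1. In BPH-1, where the trends were alike, replicate 2 was the highest library for 6 genes, CD274, PDCD1LG2, VTCN1, NECTIN2, CD47 and MICB. What sets these libraries apart was not tested.

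**Figure D4:**
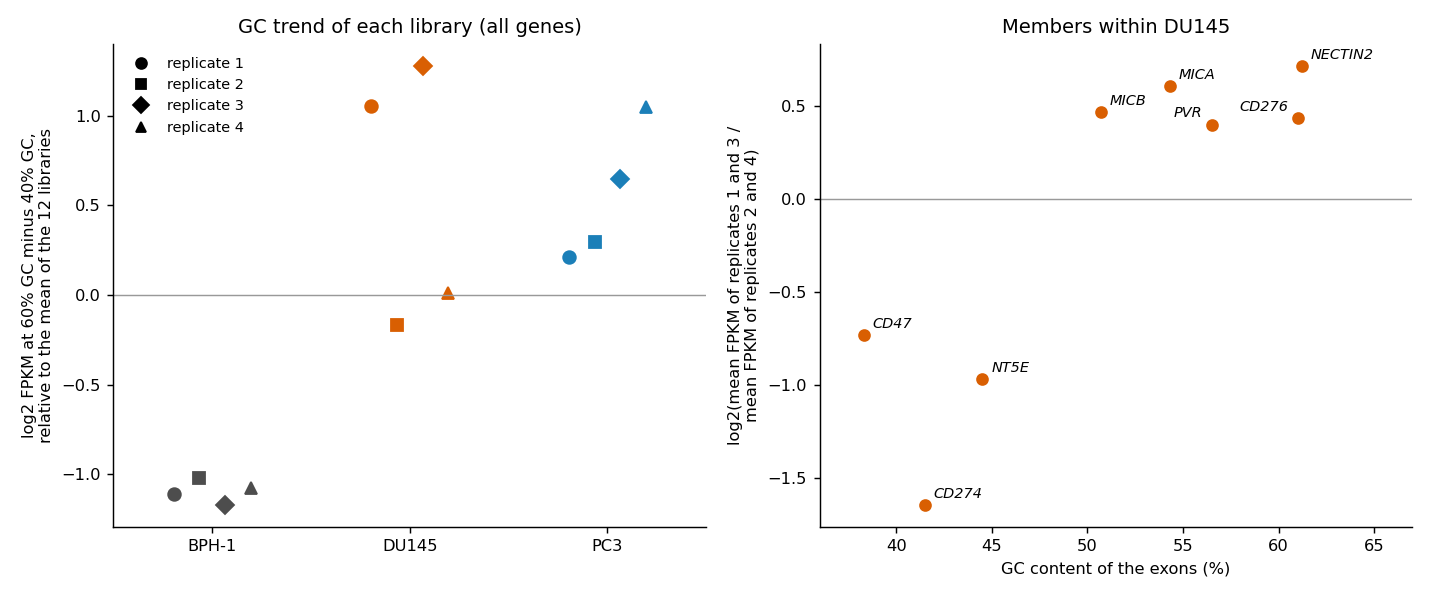
Left, the GC trend of each library (y axis, log2 FPKM of genes of 60% GC minus genes of 40% GC, relative to the mean of 12 libraries) by line, from -1.17 in BPH-1 to 1.28 in DU145. Right, for 8 of the 10 genes in DU145, log2 of the mean FPKM of replicates 1 and 3 over that of replicates 2 and 4 (y axis) against GC content of the exons (x axis); genes up to 44.5% GC lie below 0 and genes from 50.7% GC above 0, while PDCD1LG2 (0 in replicates 1 and 3) and VTCN1 (0 in all 4) have no ratio.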

How the data were processed

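Total RNA of 12 libraries, 4 each of BPH-1, DU145 and PC3, was isolated with TRIzol and sequenced after an NEBNext Ultra library preparation. Per the submitters' processing notes, CASAVA 1.8, HISAT2 2.1.0, edgeR and the build GRCh38 (hg38) were used; the role of each tool is not given in the sources used here. The authors deposited FPKM for 58302 genes. The header does not name the unit. The length behind FPKM was the sum of distinct exons of GENCODE 29, for which 92.5% to 93.6% of low values were whole reads (within 0.02). Depth was recovered from these steps, the length of CD47 was set from its own steps, and 263 genes without a length were left out. Gene positions are those of GENCODE 29.

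Genes were tested when 4 or more of the libraries (the size of the smaller group) reached the FPKM that 10 reads give at median depth, with limma 3.58.1 in R 4.3.3 on log2(FPKM + 1), with a trend in the variance, the 2 lines compared in each fit, and Benjamini-Hochberg adjustment over all genes tested (called: adjusted p under 0.05). Fold changes on this scale understate those of low genes. Fold differences stated as such are ratios of mean FPKM. The GC correction divided out each library's spline (5 degrees of freedom, genes with at least 50 reads) of log2 FPKM against GC content. Exact permutation tests, two-sided, cannot give a p below 0.0286 for 4 against 4. The recovery of depth, the limma fit and the GC correction were tested on simulated data, and the other steps were not. Alternatives were other filters, pseudocounts, scalings, a fit of all lines, voom on recovered reads, a replicate block and leaving out each library. Fits of libraries of like GC trend and without DU145 replicates 1 and 2 were added after seeing the data.

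The 10 genes and the lists around them were chosen with earlier results of these data known. From each list, the genes named were those called with the largest rise or fall in a comparison whose libraries did not overlap (at most 2 each), and any gene of a list of up to 6. CMTM6, ENTPD1, PDCD1 and PLGRKT were named after their values were seen, as were single genes of the marker lists. Some genes of the lists are not reported here. The strand setting of the counting is not given in the sources used here, so reads of overlapping antisense genes cannot be told apart. Libraries of a line differed far beyond counting noise (chi-square per gene of 17.7 to 236 over 18 pairs), so none was a copy of another's reads. In DU145 the chi-square per gene was 236 for replicates 2 and 3, with GC trends of -0.17 and 1.28. It was 25.6 for replicates 2 and 4, with GC trends of -0.17 and 0.01. Differences in preparation also enter this value, so it cannot tell repeat preparations of the same RNA or culture from separate cultures.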

Additional observations from a re-analysis of the deposited data

Results flagged for a closer look

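5 of the 29 groups of 4 libraries that could be examined held a library far from the other 3, where chance gives about 5%. The share over all genes is not given here, and genes read in the same library are not independent. No excess over chance can therefore be read from this count. CD276 in DU145 replicate 3 reached an FPKM of 4.70, where the remaining DU145 libraries lay at 2.56 to 2.83. VTCN1 in BPH-1 replicate 2 had 0.929 against 0.0321 to 0.158, and VTCN1 in PC3 replicate 2 had 0.0241, from 2 reads, against 0. A gene with reads in only 1 of 4 libraries always stands out in this way. MICA and MICB in PC3 replicate 4 had 23.8 against 11.2 to 13.2 and 20.4 against 12.4 to 13.2. DU145 replicate 3 and PC3 replicate 4 had the steepest GC trends of their lines (1.28 and 1.05 on the log2 scale), and with the trend divided out these values were 3.66 against 2.28 to 2.94 for CD276, 18.9 against 10.5 to 12 for MICA and 17.3 against 11.9 to 12.4 for MICB.

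4 genes differed between the PCa lines in their change against BPH-1, tested directly as PC3 against DU145, with log2 fold changes of -1.29 for CD274, -1.95 for PVR, 1.0 for CD47 and -1.93 for NT5E. In each case the 4 libraries of PC3 did not overlap those of DU145, as held for 46.5% of all genes tested.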

How the results depend on the processing

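Calls for CD274, PDCD1LG2, NT5E and PVR in all comparisons in which they were called, and for CD47 in both comparisons with DU145, kept their direction and side of the threshold under the alternatives that tested them, except PVR between PC3 and BPH-1 under upper-quartile scaling (-0.29). When every library had to pass the filter, PDCD1LG2, of which only the BPH-1 libraries reach it, was no longer tested. This left 4 genes called in PC3 against BPH-1 and 3 in DU145 against BPH-1. With an absolute log2 fold change over 1 also required, 3 of the 10 genes were called between PC3 and BPH-1, and 29, 31 and 22 of the 111 genes in the lists in these lines, in DU145 against BPH-1 and between the PCa lines. The replicate numbers did not pair the libraries (correlations of deviations from -0.678 to 0.536), and with them as a replicate block 5, 4 and 4 of the 10 genes were called, and 55, 54 and 43 genes of the lists.

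With the GC trend divided out, the log2 fold change in PC3 against BPH-1 turned to 0.458 for CD47, -0.211 for NECTIN2 and -0.255 for MICB, that in DU145 against BPH-1 to -0.210 for NECTIN2, -0.209 for MICA and -0.098 for MICB, and that of NECTIN2 in PC3 against DU145 to -0.001. With libraries rescaled to the same sum it turned to -0.249 for MICB in PC3 against BPH-1, and to -0.101 for NECTIN2, -0.157 for MICA and -0.160 for MICB in DU145 against BPH-1. Upper-quartile scaling gave 0.195 for CD276 and 0.251 for MICA in PC3 against BPH-1, made NECTIN2 called there (0.642, adjusted p = 0.0143), and gave 0.039 for MICB in PC3 against DU145, where median-of-ratios scaling gave 0.028. Upper-quartile scaling moved the median of all genes from -0.126 to 0.098 in PC3 against BPH-1 and from -0.026 to 0.134 in DU145 against BPH-1, and rescaling to the same sum moved it to -0.282 and -0.163. The cause of these turns was not tested.

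Leaving out 1 library turned differences that had not been called. In PC3 against BPH-1 these were CD276 without BPH-1 replicate 3 or 4 (0.016 and 0.037) and MICB without BPH-1 replicate 4 or PC3 replicate 4 (-0.072 and -0.149). In DU145 against BPH-1 they were CD274 without BPH-1 replicate 1 or DU145 replicate 2 (-0.066 and -0.038), MICB without BPH-1 replicate 4 or DU145 replicate 3 (-0.004 and -0.035), and NECTIN2 and MICA without DU145 replicate 3 (-0.017 and -0.086). In PC3 against DU145 they were NECTIN2 without DU145 replicate 2 (-0.039) and MICB without DU145 replicate 3 or PC3 replicate 2 (0.042 and 0.001). NECTIN2 was called in PC3 against BPH-1 without BPH-1 replicate 2 (0.408, adjusted p = 0.0294). Without DU145 replicates 1 and 2, chosen after seeing the data, NECTIN2 in PC3 against DU145 was at -0.010, and 4 of the 10 genes were called in both comparisons with DU145. Over all fits that left out 1 library, the log2 fold change ranged in PC3 against BPH-1 from -0.352 to 0.037 for CD276 and from -0.149 to 0.076 for MICB, in DU145 against BPH-1 from -0.066 to 0.404 for CD274, from -0.017 to 0.302 for NECTIN2, from -0.086 to 0.178 for MICA and from -0.035 to 0.171 for MICB, and in PC3 against DU145 from -0.039 to 0.279 for NECTIN2 and from -0.224 to 0.042 for MICB. Levels of PDCD1LG2 in the PCa lines and of VTCN1 rest on few reads, and differences there are limited by depth.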
